A study of Mus musculus with 5 samples.

Results

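The KLF and EGR factors described here are 10 named genes, Klf2, Klf3, Klf4, Klf6, Klf7, Klf10, Klf13, Egr1, Egr2 and Egr3, out of 21883 protein-coding genes on the assembled chromosomes of mouse. They were chosen by name, and the deposited H3K27ac peaks were sought within 1 kb of their ends, in their bodies and within 100 kb. Acetylation of histone H3 at lysine 27 (H3K27ac) marks active promoters and enhancers, and it was mapped by ChIPmentation, in which Tn5 transposase adds the sequencing adapters to immunoprecipitated chromatin. All 5 libraries, 4 of H3K27ac and 1 of input, came from bone marrow cells labelled HSC/MPP (haematopoietic stem cells and multipotent progenitors) that were sorted as CD45.2+ Lineage- Sca1+ Kit+ and carried the genotype Mll3/4 deleted. Mll3 and Mll4 are histone methyltransferases that act mainly at enhancers. The labels give neither the age of the mice nor how the deletion was brought about. The input carried the same genotype and no other genotype was used here, so no gain or loss can be read from these data.

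Krüppel-like factors bind CACCC and GC-rich DNA through zinc fingers at their carboxy terminus. KLF2 holds T cells and B cells in a resting state and controls their trafficking, KLF3 is a repressor that also acts in B-cell subsets, and KLF13 acts in T lymphocytes. KLF4 promotes monocyte differentiation, KLF6 acts in macrophages, KLF7 is best known from neuronal development, and KLF10 is induced by TGF-beta. EGR factors are immediate-early proteins that are induced within minutes of a growth factor or antigen-receptor signal, largely through serum response factor (SRF) and its ETS partners at CArG boxes, and EGR1 and EGR2 also act in macrophage differentiation. By these textbook roles Klf2, Klf3 and Klf13 were taken as the lymphoid quiescence group. Among them only KLF2 is described above as holding cells at rest, so the name of the group serves as a label. Klf4, Klf6, Egr1, Egr2 and Egr3 were taken as the myeloid and immediate-early group, with Klf7 and Klf10 as other members.

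The list held 22948 peaks for the 4 H3K27ac libraries together, so there was no value of a single library, no replicate error and no test between groups of samples. Each peak carries the authors' signal value, an enrichment ratio of H3K27ac over background, and the authors' −log10 q. Over the list the signal value ranged from 1.44 to 34.05 with a median of 3.27, and 21.2% of peaks had a q-value above 0.05. Total read depth is unknown. Of 6 genes chosen here as HSC/MPP markers, Kit, Flt3, Meis1 and Ptprc had a peak at an end, and Ly6a and Cd34 did not. Of all protein-coding genes, 36.2% had such a peak. A peak list gives no level of expression.

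RefSeq promoter sequences (GRCm38.p6, 250 bases before to 50 after a start) were held for 7 members, and 6 are shown because they belong to starts that differ most in acetylation: Klf6, Klf7 and Klf13 with the strongest peaks, Klf2 with weaker ones, and Klf3 and Egr2 with none. They are written 5′ to 3′ on the strand of the gene. Capitals mark matches, on either strand, to the KLF and SP motif CACCC, to the GC box GGGCGG bound by SP factors, to the EGR motifs GCGTGGGCG and also GCGGGGGCG, to the CREB motif TGACGTCA or to the CArG box. Matches to the GC box and the EGR motifs can overlap. For Egr2, which has 5 annotated starts, the middle one by position is shown.
Klf6 (chr13:5861239-5861538, plus strand): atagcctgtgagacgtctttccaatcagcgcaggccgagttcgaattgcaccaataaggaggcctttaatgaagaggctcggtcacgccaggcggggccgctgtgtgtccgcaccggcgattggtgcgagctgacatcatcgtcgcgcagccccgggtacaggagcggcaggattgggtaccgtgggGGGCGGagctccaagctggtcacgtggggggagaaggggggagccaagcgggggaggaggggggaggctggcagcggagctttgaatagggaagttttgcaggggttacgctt
Klf7 (chr1:64121340-64121639, minus strand): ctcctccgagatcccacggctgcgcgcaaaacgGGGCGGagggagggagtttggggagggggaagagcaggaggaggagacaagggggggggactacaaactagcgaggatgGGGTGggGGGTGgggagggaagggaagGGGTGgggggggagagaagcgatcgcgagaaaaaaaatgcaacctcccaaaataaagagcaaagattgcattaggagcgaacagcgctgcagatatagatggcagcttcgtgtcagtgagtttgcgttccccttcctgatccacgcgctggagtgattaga
Klf13 (chr7:63938866-63939165, minus strand): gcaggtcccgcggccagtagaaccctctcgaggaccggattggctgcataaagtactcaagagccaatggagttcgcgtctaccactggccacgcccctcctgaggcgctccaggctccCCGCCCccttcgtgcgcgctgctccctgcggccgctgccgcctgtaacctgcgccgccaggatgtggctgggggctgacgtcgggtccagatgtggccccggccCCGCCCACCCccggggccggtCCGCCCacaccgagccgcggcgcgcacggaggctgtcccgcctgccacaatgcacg
Klf2 (chr8:72318812-72319111, plus strand): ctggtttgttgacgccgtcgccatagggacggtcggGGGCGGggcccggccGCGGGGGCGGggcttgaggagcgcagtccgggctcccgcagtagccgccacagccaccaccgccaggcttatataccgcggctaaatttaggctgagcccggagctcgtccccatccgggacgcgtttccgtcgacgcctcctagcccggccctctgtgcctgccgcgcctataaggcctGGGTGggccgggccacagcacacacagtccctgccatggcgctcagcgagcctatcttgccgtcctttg
Klf3 (chr5:64803271-64803570, plus strand): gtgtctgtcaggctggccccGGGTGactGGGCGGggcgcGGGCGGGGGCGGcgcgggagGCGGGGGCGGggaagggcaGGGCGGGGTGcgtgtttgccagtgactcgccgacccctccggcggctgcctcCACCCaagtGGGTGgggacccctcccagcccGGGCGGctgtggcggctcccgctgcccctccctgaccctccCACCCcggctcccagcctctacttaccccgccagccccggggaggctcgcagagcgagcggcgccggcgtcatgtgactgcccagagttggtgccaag
Egr2 (chr10:67537619-67537918, plus strand): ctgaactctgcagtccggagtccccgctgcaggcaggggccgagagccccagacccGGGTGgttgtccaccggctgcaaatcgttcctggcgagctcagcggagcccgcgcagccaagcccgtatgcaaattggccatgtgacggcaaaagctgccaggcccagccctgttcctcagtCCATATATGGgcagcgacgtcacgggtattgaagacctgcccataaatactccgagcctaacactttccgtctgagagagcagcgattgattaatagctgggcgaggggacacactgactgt

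Among 32851 promoters of this length, CACCC was found in 57.5%, GGGCGG in 35.7%, GCGGGGGCG in 2.91%, TGACGTCA in 1.79%, the CArG box in 1.63% and GCGTGGGCG in 0.612%. The Klf3 promoter held 5 matches to CACCC, 6 to GGGCGG and 2 to GCGGGGGCG, the most of each among the members, and no peak lay within 2 kb of its start. Klf2 held 1 match to GCGGGGGCG and Klf4 also 1, while Klf6 held a single GGGCGG and no CACCC. A CArG box was found at Egr2 alone among the 7 members, in 4 of its 5 overlapping or neighbouring entries. In the sequence shown its first base lies 72 bases before the start. No member entry held GCGTGGGCG or TGACGTCA. All 11 promoter entries of the members had more CpG than at least 67.0% of promoters, and Klf4 more than 96.1%. The number of CpG in 300 bases was 40 at Klf4, 32 at Klf2 and at Klf13, 29 at Klf3, 23 at Klf6, 16 at Klf7, and between 16 and 32 at Egr2. These matches describe letters in a window and not binding.

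H3K27ac peaks lay at an end of 7 of the 10 members, against 36.2% of all protein-coding genes. The 7 were Klf2, Klf13, Klf4, Klf6, Klf7, Klf10 and Egr1, and the 3 without were Klf3, Egr2 and Egr3. With −log10 q of at least 5 there were 6, against a share of 24% of all genes, Klf10 having dropped out. At signal values of 4 or more there were 4, against 23.2%. Among genes with CpG-rich starts, peaks at an end were more frequent than among all genes. Of the 6 members with at least 20 CpG in a promoter entry, 4 had a peak at an end, which is close to the 59.6% of all such genes. The 7 members with a promoter entry carried 10 of the 13 end peaks, and all 10 were at the start and not at the other end of the gene.

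Klf7 and Klf6 had the strongest peaks at an end among the members. At Klf7 the peak at chr1:64121662-64122688 reached a signal value of 13.7, with 57.7 as its −log10 q. This was above 99.1% of the strongest end peaks of the 7927 genes that had one, whose median was 4.71 (interquartile range 3.52 to 6.55). At Klf6 the peak at chr13:5860427-5861299 had a signal value of 12.6, above 98.5% of those genes. A second Klf6 peak followed at chr13:5861530-5866204, with a signal value of 11.8 and a width of 4675 bp. It covered 52.5% of the Klf6 gene, and 360 peaks of the list were wider.

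Klf13 came next, with a signal value of 7.13 (above 79.7% of genes with an end peak) at chr7:63936546-63938876 and 5.84 at chr7:63939208-63940101. The other members with a peak at an end were below the median of such genes. Klf4 had a single peak at chr4:55532820-55533597 with a signal value of 4.28, and Egr1 a single one at chr18:34860866-34863250 with 3.95. Klf2 had 3 peaks, with signal values of 2.49, 3.70 and 3.98, of which the strongest at chr8:72319006-72319538 was above 35.2% of genes with an end peak. Klf10 had the weakest, with signal values of 3.00 at chr15:38299446-38300299 and 2.97 at chr15:38301365-38302572, and −log10 q of 2.16 for each. The lymphocyte quiescence gene Klf2 and the monocyte gene Klf4 were thus close in signal value and below Klf6 and Klf7. Ends of predicted genes also lay within 1 kb of the end peaks of Klf4 (Gm12506), Klf7 (Gm35880) and Klf10 (Gm35248), and the list does not assign these peaks to either gene.

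**Figure D1:**
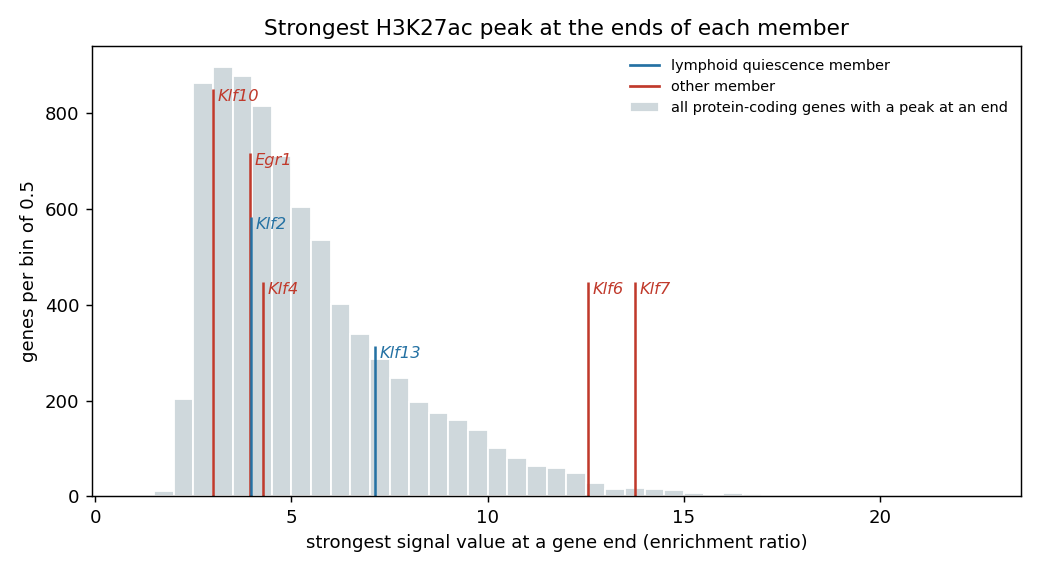
Strongest signal value at a gene end for the 7 members with a peak there (vertical lines; the height of a line carries no value) over the distribution for all 7927 protein-coding genes with an end peak (grey bars, number of genes per bin). Klf6 and Klf7 lie in the upper tail at 12.6 and 13.7, Klf13 at 7.13, and Klf10, Egr1, Klf2 and Klf4 between 3.00 and 4.28.

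At several members peak summits flanked the start, a pattern chosen for description after the values were seen. Summits lay on both sides within 2 kb of an annotated start at Klf2, Klf13, Klf6 and Klf7, which is 4 of the 7 members with a promoter entry, against 7.9% of all 17491 such genes. Of the 6679 genes with any summit within 2 kb of a start, 20.7% had summits on both sides, against 4 of 5 members. At Klf6 the summits lay 486 bp upstream and 1436 bp downstream. A gap of 230 bp separated the peaks and held the start itself. At Klf13 the summits lay 625 bp upstream and 1440 bp downstream, and the gap of 331 bp again held the start. At Klf7 they lay 672 bp upstream and 479 bp downstream with a gap of 179 bp, and at Klf2 409 bp upstream and 229 bp downstream with a gap of 195 bp. At these last genes the start fell inside the downstream peak. The annotated Klf7 gene extends to 64122345, past the start of its promoter entry, so its upstream peak overlaps the gene. The upstream peak was the stronger at Klf7 (13.7 against 5.45) and at Klf6 (12.6 against 11.8), and the downstream peak at Klf13 (7.13 against 5.84) and at Klf2 (3.98 against 3.70). Within 1 kb of a start, only Klf2 and Klf7 kept summits on both sides, and the share of all genes at this distance was not counted. At Klf4 the sole peak lay upstream, with its summit 561 bp before the start. Of the 300 promoter bases shown above, 143 lay in a peak at Klf7, 106 at Klf2, 70 at Klf6 and 11 at Klf13, and the remaining bases lay in the gap between the peaks.

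**Figure D2:**
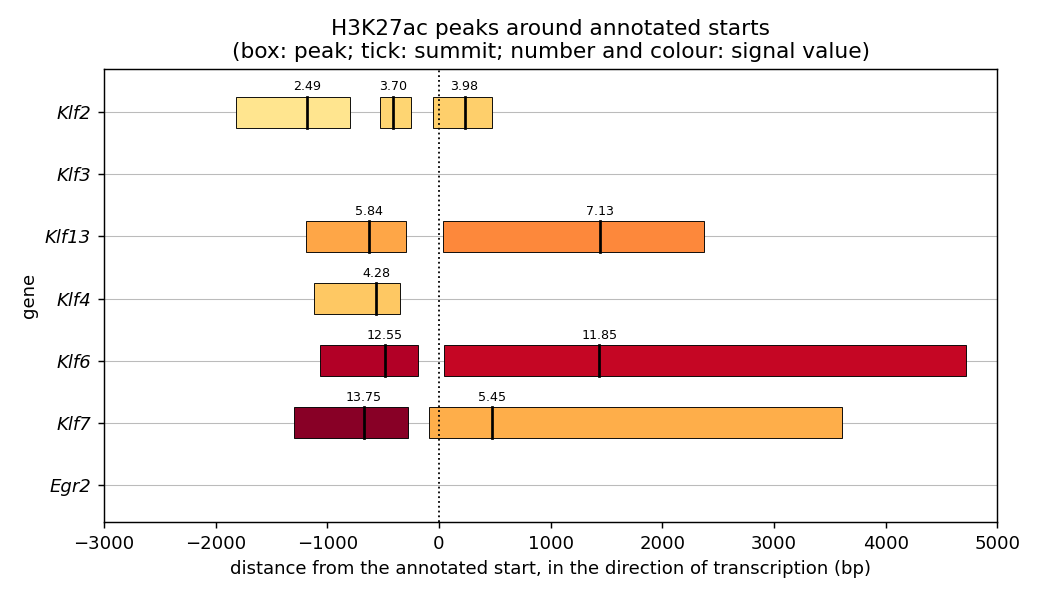
Peaks around the annotated start of the 7 members with a RefSeq promoter entry, in bp along the direction of transcription (boxes are peaks, ticks are summits, and numbers and colour give the authors' signal value). Klf2, Klf13, Klf6 and Klf7 have summits on both sides of the start, Klf4 has 1 upstream peak, and Klf3 and Egr2 have none.

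Inside gene bodies, away from both ends, peaks were found at 3 of the 10 members, against 16.6% of all protein-coding genes. These were the longest members, Klf7 (92.9 kb), Klf13 (52.6 kb) and Klf3 (29.4 kb), and the median length of all genes was 17.2 kb. Klf7 carried 6 body peaks. The stronger ones were at chr1:64087489-64089723, with a signal value of 7.25 and its summit 33.9 kb from the start end of the gene, and at chr1:64077884-64079893, with 5.32 at 43.1 kb, where an end of the predicted gene Gm13748 lies within 1 kb. The remaining Klf7 body peaks had signal values from 2.14 to 2.84 and lay near the other end. In Klf13 the 2 body peaks had signal values of 2.48 and 2.03, both with q-values above 0.05. Klf3 had 1 body peak, at chr5:64812196-64813038, with a signal value of 3.52 (−log10 q 3.79), 9.38 kb from its start. This was the only acetylation within the Klf3 gene that passed the authors' calling, and weaker acetylation below that calling is not measured by the list.

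Within 100 kb, the 10 members had 72 peaks in all, between 2 at Klf6 and 17 at Klf2. The median was 7 per member, against 3 over all protein-coding genes (interquartile range 1 to 6), and 8 of the 10 were above that median. Of all protein-coding genes, 54.8% had fewer than 4 peaks, the number at Egr2 and at Egr3. The range ran from 100 kb before a gene to 100 kb after it, so it was wider for long genes such as Klf7 and Klf13. Of the 72 peaks, 13 were at an end, 9 in a body, 18 were outside and had the member as the nearest protein-coding gene end, and 32 were outside and nearest to another gene. Of the 9 body peaks, 3 also had another gene's end as the nearest, 1 in Klf3 (Gm38457) and 2 in Klf13 (E030018B13Rik), so that 35 of the 72 were nearest to the end of another gene. Of the 72, 22.2% had a q-value above 0.05, near the 21.2% of the list, and their median signal value was 3.21, against 3.27 for the list. Counting only peaks in a member or nearest to it, the median was 3 per member, with 10 at Klf7, 7 at Klf13, 6 at Klf4, 5 at Klf2, 3 each at Klf3, Klf10 and Egr2, 2 at Klf6, 1 at Egr1 and 0 at Egr3. At the edge of the range, 7 peaks lay 90 to 100 kb outside a member, with signal values from 2.36 to 9.61, and 6 lay 100 to 110 kb outside, with values from 2.41 to 9.58.

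**Figure D3:**
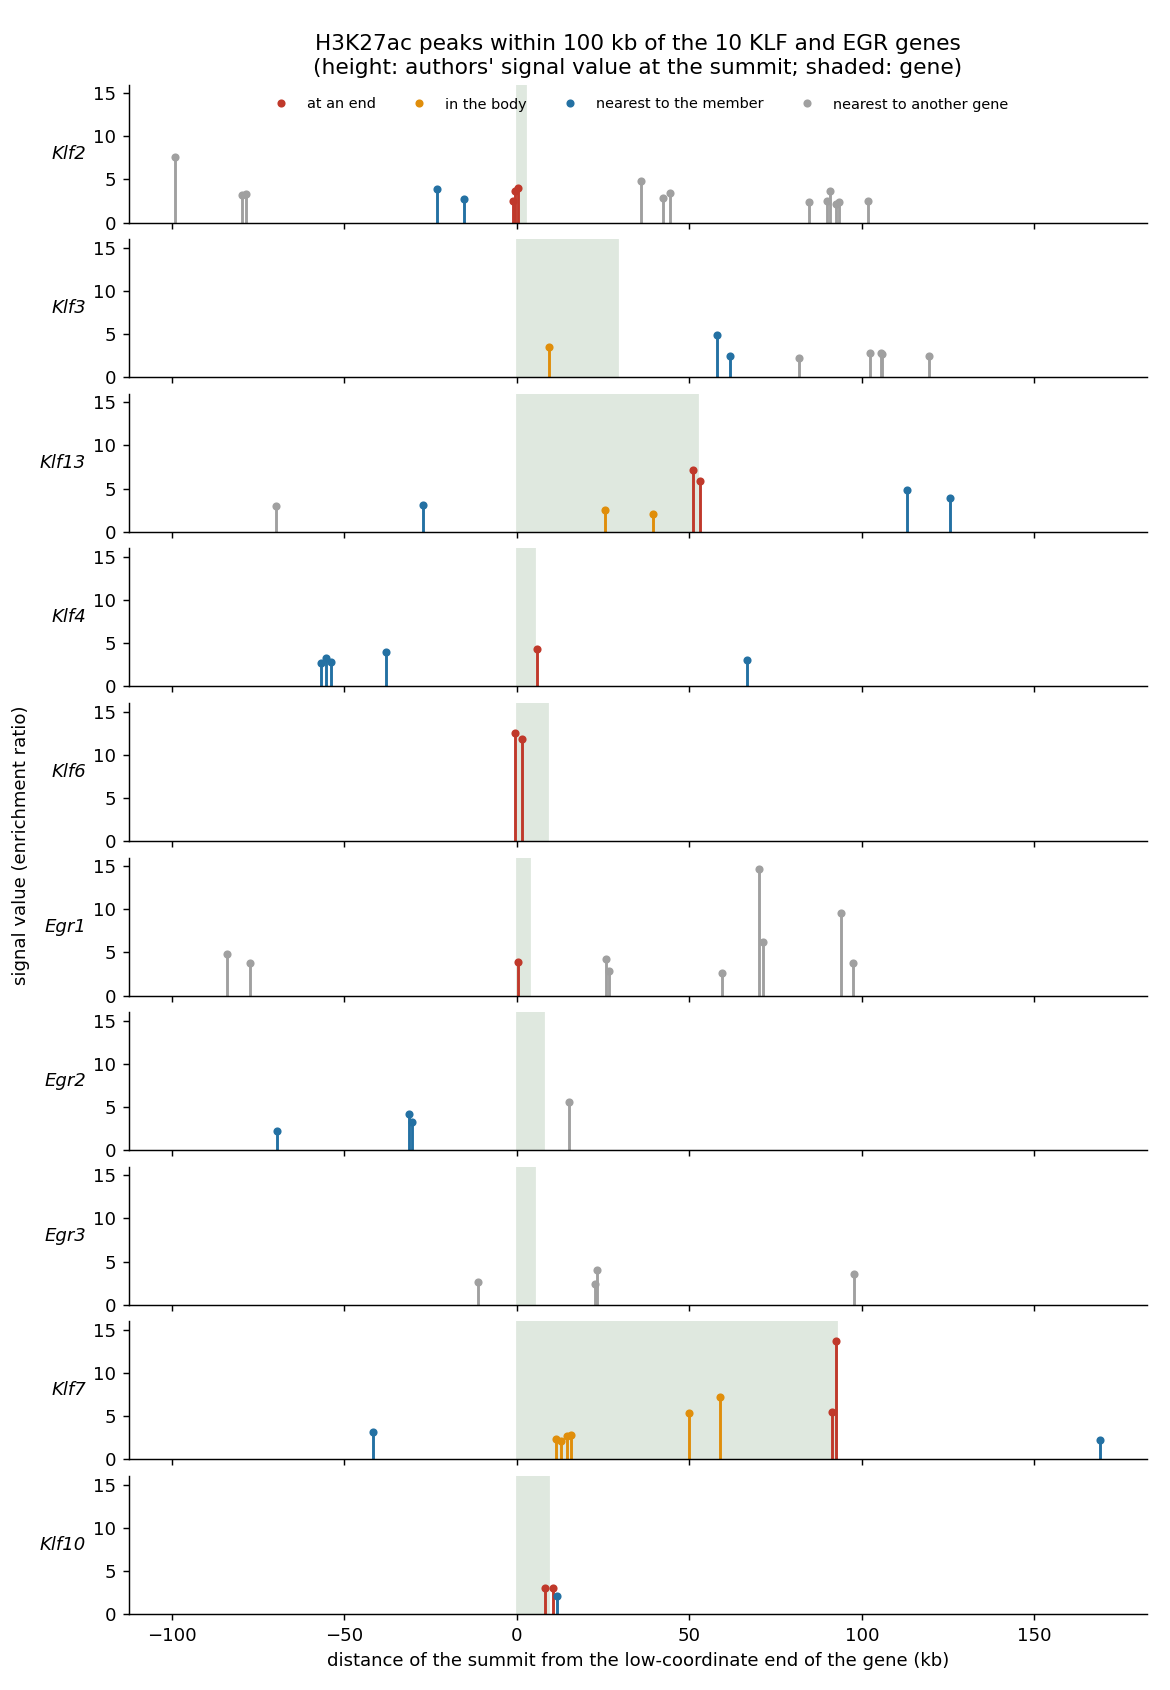
Summits within 100 kb of each member, by distance in kb from the low-coordinate end of the gene, with the authors' signal value as height and the gene shaded. Klf6 has 2 strong peaks at its start and no other, Klf7 has peaks along its body, and the tallest peaks near Egr1 are nearest to other genes.

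Klf2 had the most peaks around it, and 12 of the 17 were nearest to a neighbour. Eps15l1, an endocytic adaptor gene, was nearest to 9 of them, all with summits inside that gene and 1 of them at its end, with signal values from 2.13 to 4.80. The strongest of the 17, with 7.59, lay at Fam32a. Nearest to Klf2 and upstream of its start were peaks at chr8:72295160-72296603 (signal value 3.88, −log10 q 4.98), 23.0 kb away, and at chr8:72303145-72303939 (2.75, −log10 q 1.67), 15.5 kb away. The latter also reaches ends of the predicted genes Gm40505 and Gm10282. The upstream peak at 23.0 kb was close in signal value to the strongest peak at the Klf2 start.

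Klf3 had no peak at its start, but 2 lay beyond its other end and nearest to it. The stronger, at chr5:64861033-64862645, lay 28.6 kb away with a signal value of 4.93 (−log10 q 9.06). It exceeded the body peak of 3.52. The 5 further peaks were nearest to the Toll-like receptor gene Tlr1, with signal values up to 2.85. Around Klf13, peaks lay upstream of the start at 60.6 kb (chr7:63998941-64000521, signal value 4.90) and at 73.0 kb (chr7:64011348-64012525, 3.88), and 27.3 kb beyond the other end (3.12).

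Klf4 had 5 peaks outside the gene and no other protein-coding gene within 100 kb. Of these, 4 lay beyond the end opposite the start. A group of 3 lay 54.0, 55.3 and 56.7 kb beyond it, with signal values of 2.81, 3.30 and 2.68. The strongest, at chr4:55488820-55489725, lay 37.9 kb beyond it with 3.95. The fifth was 61.4 kb upstream of the start, with 3.00. Elements downstream of Klf4 are known as its enhancers in mouse embryonic stem cells, and their positions were not compared here. None of the 6 Klf4 peaks had a q-value above 0.05.

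Klf6 and Klf10 had almost nothing away from their ends. Klf6 had no other peak within 100 kb and no other protein-coding gene there. The member with the second highest signal value at an end thus had the fewest peaks within 100 kb. Klf10 had 1 further peak, at chr15:38302834-38303145 and 2.30 kb from the gene, with a signal value of 2.07 and a q-value of 0.338. Klf7 had only 2 outside its body and ends, with signal values of 3.15 and 2.29, against 6 inside.

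Most peaks around Egr1 and Egr3 were nearest to other genes, but only 1 of 4 around Egr2. Among the KLF genes, 12 of 17 peaks at Klf2 and 5 of 8 at Klf3 lay outside and nearest to another gene. Of the 18 peaks within 100 kb of the 3 EGR genes, 14 were nearest to the end of another gene. Around the 7 KLF genes it was 21 of 54, or 18 of 54 without the 3 body peaks. Within 100 kb, Egr1 had 5 neighbouring genes, Egr2 had 1 and Egr3 had 6, against 0 to 3 at the KLF genes. The same share over all protein-coding genes was not counted. Egr1 had 1 peak at its low-coordinate end, which covered 54.5% of the gene, and 9 others that were all nearest to Etf1, Hspa9 or Kdm3b. The strongest of these, at Etf1, which encodes a translation termination factor, had a signal value of 14.7, against 3.95 at Egr1. At chr18:34886874-34887333, 22.1 kb beyond the high end of Egr1 and 15.7 kb from Etf1, a peak had a signal value of 4.25, above that at Egr1 itself. Egr2 had neither an end peak nor a body peak. Nearest to Egr2 and upstream of the gene were peaks at chr10:67502591-67503640 (signal value 4.16, −log10 q 6.27) and chr10:67503823-67504421 (3.27), at 31.3 and 30.4 kb, and a weak one at 69.5 kb (2.25, q-value 0.204). An end of a predicted gene, Gm40679, lies within 1 kb of both peaks at 30.4 and 31.3 kb. The strongest peak around Egr2, with 5.60, lay at an end of the neighbouring gene Ado. Egr3 had no peak at an end, in its body or nearest to it, and its 4 peaks within 100 kb were nearest to Bin3, Pdlim2 or Pebp4 with signal values from 2.35 to 3.98.

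The lymphoid quiescence group and the remaining members were then set side by side. Genes are not replicates and no test was made. A peak at an end was found at 2 of the 3 lymphoid quiescence members and at 5 of the other 7. With Klf4 and Klf10, which also restrain T-cell activation, moved to the lymphoid group, it was 4 of 5 and 3 of 5. The strongest end signal values were 7.13 at Klf13 and 3.98 at Klf2 in the former, and 13.7, 12.6, 4.28, 3.95 and 3.00 in the latter, so the groups overlapped. Body peaks were found at 2 of 3 and 1 of 7, and neither lymphoid member kept one with −log10 q of at least 5. Within 100 kb, the lymphoid quiescence members had 17, 8 and 8 peaks, a median of 8, and the others between 2 and 10, a median of 4. Of all 10 members, 5 had at least 8 peaks, a level chosen after the values were seen, against 16.1% of all genes. The others at or above it were Egr1 and Klf7. Part of this count lay at neighbours, and with peaks in or nearest to a member the medians were 5 (3 to 7) and 3 (0 to 10). For the lymphoid quiescence members the median signal value away from the ends was 2.84 over 28 peaks, against 3.27 over 31 peaks for the others. Of all peaks around them, 27.3% had a q-value above 0.05, against 17.9%. At signal values of 4 or more, the median number within 100 kb was 2 in each group.

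**Figure D4:**
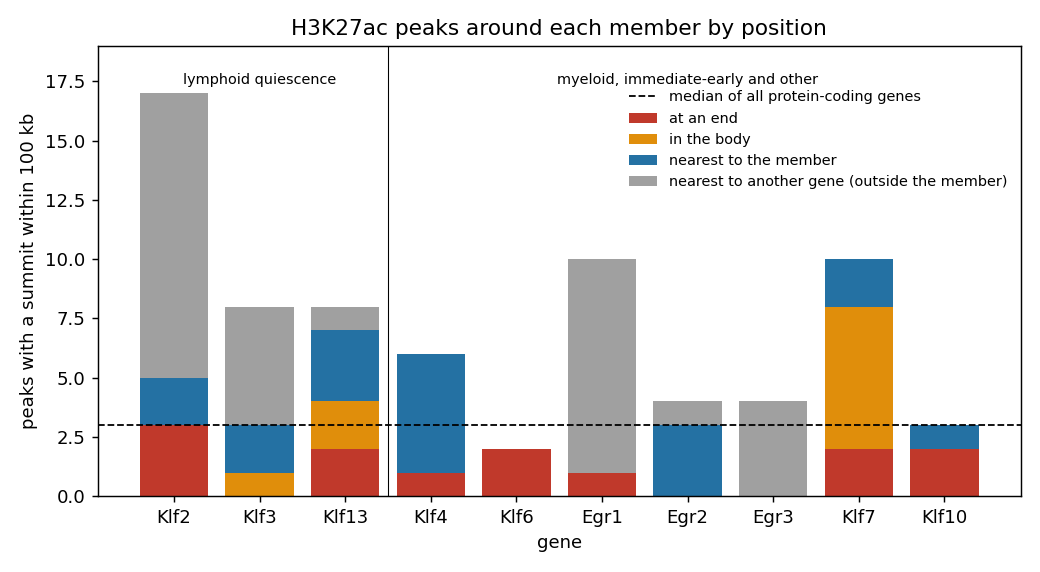
Number of peaks with a summit within 100 kb of each member, split by position (colours), with the median of all protein-coding genes as a dashed line at 3. The lymphoid quiescence members Klf2, Klf3 and Klf13 have 17, 8 and 8 peaks, of which 12, 5 and 1 lie outside the gene and are nearest to another. Body peaks are shown as such whatever end is nearest.

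Other genes of the pathway showed peaks at an end in 16 of 37, near the 36.2% of all protein-coding genes. Of 10 further KLF genes, 2 had one: Klf9 (signal value 6.18), a target of glucocorticoid and thyroid hormone, and Klf11 (5.36), a close relative of Klf10. Klf12 had none at its ends but 8 peaks in its body, which is 419.7 kb long. Of 9 SP genes, which encode the related GC-box factors, Sp1 (7.41), Sp4 (5.26) and Sp3 (4.37) had one. Egr4 and Wt1 had none, whereas Nab2 (5.05) and Nab1 (4.19), whose products bind EGR proteins and repress them, both did. Of 6 genes of KLF corepressors, 5 had one, the strongest at Hdac2 (4.28), Ctbp1 (4.24) and Sin3a (3.46). Among 4 genes that act upstream of EGR genes, Elk4 (10.9), Elk3 (3.98) and Srf (2.88) had one. Of 4 genes regulated by KLF2 in lymphocytes, Ccr7 (6.92) had one, and S1pr1, Itgb7 and Cdkn1a did not.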

How the data were processed

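The labels describe 4 H3K27ac libraries and 1 input library of Mll3/4-deleted cells, and 1 peak list covers the 4 together. BWA, MACS2 and the build mm10 are named in the submitters' processing notes, with no versions. The deposited list is named as an overlap and optimal peak list. How its peaks were selected, and any other filters, are not given in the sources used here. The file has no header, and its columns were read in narrowPeak order: the deposited score, the authors' signal value (an enrichment ratio) and the authors' −log10 p and −log10 q. These values belong to single peaks and served only to describe or filter them. Gene positions, strand and promoters came from RefSeq tables of GRCm38.p6, the same build as mm10. Coordinates are 1-based.

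A peak was at an end when it overlapped by at least 1 bp the 1 kb on either side of a gene end, in the body when its summit lay inside the gene and it was not at an end, and within 100 kb by its summit. The nearest gene was that with the nearest end among protein-coding genes, and peaks at an end or in the body were counted with the member whatever end was nearest. Counts were made with Python 3.11.15 and pandas 2.3.3, and the counting was tested on simulated peaks. Members and lists were chosen with earlier results of these data known. All members were named, and of each pathway list at most the 3 strongest with a peak, besides all of the chosen HSC/MPP markers. Klf12, genes without a peak and genes near a peak were named after their values were seen. Shares are of all protein-coding genes. A planned list of lineage markers and a gene of another list are not reported here. No protein sequences were used here. The alternatives were stricter lists, other windows and ranges, merged peaks and another grouping.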

Additional observations from a re-analysis of the deposited data

How the results depend on the processing

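Of 104 recomputed values, 78 were classed as the same and 26 as moved. For counts and medians, moved means a change of more than 1.5 times from the reported value. Of 38 recomputed strongest end signal values, 1 was classed as moved, although it stayed within 1.5 times the reported one. At signal values of 4 or more, the number of members with a peak at an end was 4, made up of 1 lymphoid quiescence member and 3 others. The members with a body peak were then 1, with 0 in the lymphoid quiescence group, and the same counts were found with −log10 q of at least 5. With q of at most 0.05 the lymphoid quiescence group kept 1 with a body peak. The median number of peaks within 100 kb was 2 over all members both with −log10 q of at least 5 and at signal values of 4 or more. For the lymphoid quiescence group it was 3 and 2 in these lists, and for the others 2 and 2, so that the difference of 4 became 1 and 0. Within 50 kb the medians were 3 over all members and 5 in the lymphoid quiescence group, a difference of 2 from the others. With peaks in or nearest to a member they were 3 and 5, again a difference of 2. With Klf4 and Klf10 in the lymphoid quiescence group, 4 of its 5 members and 3 of the 5 others had a peak at an end, so the order of the shares turned from the reported 2 of 3 against 5 of 7. With summits within 1 kb of a start, 2 members had summits on both sides, an alternative chosen after seeing the data. Its share over all genes was not counted. The strongest end signal value of Klf13 was 5.84, against the reported 7.13, when a summit had to lie in the window. In 4 cases no end peak was left and no value could be given: Klf2, Egr1 and Klf10 at signal values of 4 or more, and Klf10 with −log10 q of at least 5. Stricter lists and shorter ranges hold fewer peaks by construction.

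No library was left out in turn, since all values are of the pooled list. No paired analysis was possible because the columns carry no replicate and no test was made. The depth is unknown, so how many weak peaks a deeper sequencing would keep was not measured.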
